A study of Homo sapiens with 2 samples.

Results

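The regions described here are the accessible chromatin at 6 genes of the MYC network: MYC, MYCN, MYCL, MAX, MXD1 and MXI1. A region was taken for a gene when its summit lay in the annotated gene body or within 100 kb of it, and for MYC within 1 Mb, which spans most of the gene-poor stretch called the 8q24 desert. The rule found 236 of the 160327 regions of the list, or 0.147%. MYC had 137 of them, MXI1 28, MYCN 22, MAX 20, MXD1 16 and MYCL 13. The assay was ATAC-seq, which cuts and tags accessible DNA with a transposase so that open stretches are sequenced most often, and the cells were H1, an established line of human embryonic stem cells. There was 1 group of 2 samples: H1 cells with no treatment other than handling, which were stored frozen, thawed, cleared of free DNA with DNase I for 30 min, cleaned over Ficoll and put through the Omni-ATAC protocol. Both samples share 1 deposited list of regions on GRCh38, so no value below has a replicate error, no read depth is known, and nothing was compared between samples. H1 is 1 line, and the labels do not tell whether the samples were separate cultures.

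MYC, MYCN and MYCL are transcription factors of the basic helix-loop-helix leucine zipper class that drive growth and proliferation, and they bind DNA only as dimers with MAX. MAX also pairs with the MXD proteins, among them MXD1 and MXI1 (also called MXD2), which recruit SIN3 and histone deacetylases to the same E box, CACGTG, and oppose MYC. MYC proteins are known to support the self-renewal of pluripotent cells. MYC stands almost alone among protein-coding genes in a desert rich in long noncoding RNA genes and in tissue-specific enhancers.

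The stretches before the starts of MYCN, MYCL, MXD1 and MXI1 are shown because each lies wholly or, for MXI1, partly in a promoter region described below. They are parts of the 250 bases before the RefSeq start (hg38) that overlap no annotated exon, read along the gene's strand, with GC boxes (GGGCGG) and CCAAT in capitals, on either strand. The stretches are chr2:15940352-15940549 (plus strand) for MYCN, chr1:39901920-39902140 (minus) for MYCL, chr2:69914859-69915040 (plus) for MXD1 and chr10:110207355-110207604 (plus) for MXI1.
MYCN: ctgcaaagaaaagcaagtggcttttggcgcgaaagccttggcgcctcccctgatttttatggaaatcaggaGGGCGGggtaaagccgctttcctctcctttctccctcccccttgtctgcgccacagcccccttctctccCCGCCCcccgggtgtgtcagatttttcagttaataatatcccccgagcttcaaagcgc
MYCL: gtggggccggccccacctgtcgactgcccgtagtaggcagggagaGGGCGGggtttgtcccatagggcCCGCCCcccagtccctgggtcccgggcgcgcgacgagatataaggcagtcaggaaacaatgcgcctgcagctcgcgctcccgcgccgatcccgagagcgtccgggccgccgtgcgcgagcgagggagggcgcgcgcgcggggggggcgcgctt
MXD1: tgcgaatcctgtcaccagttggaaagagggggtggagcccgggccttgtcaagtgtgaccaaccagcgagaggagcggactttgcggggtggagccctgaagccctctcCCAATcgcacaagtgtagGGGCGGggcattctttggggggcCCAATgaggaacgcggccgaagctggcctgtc
MXI1: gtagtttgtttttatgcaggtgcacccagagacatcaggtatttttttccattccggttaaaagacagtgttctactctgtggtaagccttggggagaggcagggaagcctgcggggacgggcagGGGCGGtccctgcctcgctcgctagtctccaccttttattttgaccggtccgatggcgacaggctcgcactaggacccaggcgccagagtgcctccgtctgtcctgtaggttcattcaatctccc
The RefSeq table used holds 5 of the 6 members and has no entry for MYC. In the 250 bases before the first start it gives for a gene, a GC box was found for 4 of these 5 members. They are the 4 genes printed above, and MAX had no match. Among all 35116 starts the share with a GC box was 42.6%. CCAAT was found for MXD1 and for 32.0% of all. The E box that MYC and MAX bind was found before the first RefSeq start of none of the 5 members that the table holds, and before 6.34% of all starts. For MAX that RefSeq start lies downstream of the canonical start used below. Both CCAAT matches of MXD1 flank its GC box, and the MYCN stretch holds 2 GC boxes.

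Away from promoters, the octamer ATGCAAAT, the core sequence bound by POU5F1 (OCT4), was the motif whose share differed most in ratio from the list among motifs found in at least 10 member regions. The 5 windows of 101 bases centred on the summits of such regions at MYCN, MAX and MXI1 are shown on the plus strand of hg38, with the octamer in capitals on either strand. The first 3 are at MYCN, 40.2 kb after its start (chr2:15980661-15980761), 44.3 kb before it (chr2:15896220-15896320) and 4.64 kb before it (chr2:15935857-15935957). The others lie in the MAX gene (chr14:65083063-65083163) and 77.9 kb before MXI1, in an intron of ADD3 (chr10:110129614-110129714).
MYCN after the start: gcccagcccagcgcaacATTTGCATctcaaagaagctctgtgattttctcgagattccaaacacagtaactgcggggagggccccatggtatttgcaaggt
MYCN farther before the start: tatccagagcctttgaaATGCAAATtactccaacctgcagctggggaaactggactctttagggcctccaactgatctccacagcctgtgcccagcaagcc
MYCN nearer before the start: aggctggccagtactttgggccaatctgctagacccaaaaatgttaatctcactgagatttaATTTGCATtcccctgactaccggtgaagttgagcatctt
MAX intron: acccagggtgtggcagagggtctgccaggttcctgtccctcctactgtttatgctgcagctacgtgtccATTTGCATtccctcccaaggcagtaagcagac
MXI1 upstream: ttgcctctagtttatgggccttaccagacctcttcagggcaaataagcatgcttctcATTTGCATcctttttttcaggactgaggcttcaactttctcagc
The MYCN window after the start had a fold of 12.3 over background, the value of its summit in the deposited list, with a −log10 p of 265. The others had folds of 5.06, 1.96, 3.20 and 8.41 in the order printed. The 5 windows thus run from one of the strongest regions of the 6 loci to one of the weakest.

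Matches to MYC-type sites were rare, and the windows that held them near MXI1 are shown for that reason. The first is in an intron of MXI1, 3.67 kb after its start (chr10:110211227-110211327), and the second is at the promoter of SMNDC1, a splicing factor gene 97.3 kb after the MXI1 start (chr10:110304989-110305089). In the first, capitals mark a cyclic AMP response element (CRE, TGACGTCA) that overlaps a variant E box (CACGCG). In the second they mark the E box CACGTG.
MXI1 intron: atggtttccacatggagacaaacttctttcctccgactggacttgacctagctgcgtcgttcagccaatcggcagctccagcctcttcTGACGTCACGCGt
SMNDC1 promoter: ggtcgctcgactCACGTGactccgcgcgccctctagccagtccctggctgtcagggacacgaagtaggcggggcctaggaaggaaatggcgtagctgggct
The MXI1 intron region had a fold of 9.82 and a −log10 p of 338, above the fold of 5.69 at the MXI1 start itself. The SMNDC1 promoter region had a fold of 14.7, the highest of the MXI1 locus.

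Of the strongest regions away from 5′ ends at the 5 loci other than MYC, those of MYCL and MAX hold the TEAD core GGAATG, which is read by the DNA-binding partners of YAP, and are shown as examples of it. Those of MYCN, MXD1 and MXI1 have no TEAD match. The MYCL window lies 8.56 kb after its start (chr1:39893302-39893402) and also holds an AP-1 site (TGANTCA), and the MAX window lies 85.1 kb before its start (chr14:65187605-65187705). Both are on the plus strand of hg38, with TEAD and AP-1 matches in capitals.
MYCL: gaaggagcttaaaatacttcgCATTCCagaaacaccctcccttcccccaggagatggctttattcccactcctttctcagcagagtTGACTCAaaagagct
MAX: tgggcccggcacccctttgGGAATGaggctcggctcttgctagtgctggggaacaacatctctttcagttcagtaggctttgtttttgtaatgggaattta
Their folds were 9.11 and 9.69.

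All 6 members had a region within 1000 bp of the start of their canonical transcript, the one that Ensembl selects to represent a gene. Such a region was found for 75.6% of the 20033 protein-coding genes. At the outermost annotated 5′ end 5 of 6 members had one, against 71.4% of genes, and at any annotated start 6 of 6, against 80.5%. Since most genes of the genome were called, the counts of 5 or 6 of 6 members are no result about the members. A region is placed by its highest summit throughout, and with every summit counted the shares of all genes were 73.3% at the outermost end and 76.8% at the canonical start. Fold is the authors' value for the summit over a background that is not stated. Percentiles below are ranks among the 15152 canonical promoter regions of protein-coding genes, whose median fold was 9.54 with quartiles of 6.65 and 12.6.

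Among the MYC proteins, the promoters had middling to low folds. The MYC promoter region (664 bp, 2 summits) had a fold of 5.84 at a summit 76 bp before the start, the 18.9th percentile by fold. The MYCN region (1189 bp, 3 summits) had a fold of 5.09 at a summit 149 bp before the start, the 13.8th percentile. The MYCL region (1128 bp, 3 summits), 167 bp before the start, had a fold of 8.90 and the 43.9th percentile. The order was MYCL, MYC, MYCN, and without replicate lists the gap of 5.84 to 5.09 between the lower pair has no error to be set against.

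MAX, the shared partner, had the widest region of all 6 loci at its start, with 1715 bp and 4 summits. Its fold was 11.8 at a summit 84 bp before the canonical start, the 69.3rd percentile by fold and the 92.3rd by width. An E box lay within 50 bp of that summit, 46 bp before the canonical start and 30 bp beyond the RefSeq window searched above. The repressors differed from each other: MXD1 had the strongest promoter of the 6, with a fold of 13.0 (78.4th percentile), and MXI1 one of the weakest, with 5.69 in a region of 434 bp (17.8th percentile by fold, 5.72nd by width). The MXD1 region sits 186 bp before the canonical start. No region lay within 1000 bp of the outermost MXD1 start, which is annotated 17421 bp upstream.

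The −log10 p values ranked the same promoters higher than the folds did. They were 137 for MYC (53.8th percentile), 128 for MYCN (50.5th) and 131 for MXI1 (51.8th), all above the median of 126 for canonical promoter regions. MYCL had 171 (63.5th), MAX 298 (85.6th) and MXD1 427 (94.0th). Regions of the list within 5% of the fold of the MYC promoter had a median −log10 p of 29.0, and those like MYCN one of 21.9. Each of the 6 promoters exceeded the median of regions of like fold, as did 88.4% of all canonical promoter regions, so this is the usual state of a promoter in the list.

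MXI1 has 37 distinct annotated starts, and 32 of them lie together 18.4 to 20.6 kb after the canonical one. All 32 had a region within 1000 bp. The region there (chr10:110225556-110227223, 1668 bp, 4 summits) had a fold of 7.94 and a −log10 p of 214, both above the 5.69 and 131 of the canonical start, and a neighbour (chr10:110227353-110227759) had 4.11. MXI1 was thus listed with higher folds in the intron before its second group of starts, and beside the nearer starts of that group, than at its first start. By its highest summit, the 7.94 region lay within 1000 bp of the starts up to 19250 bp after the canonical one. For starts of the group from 19390 bp onward, only the highest summit of the neighbour was that near. Its −log10 p was 56.6, so it was below the canonical start in both values. The 7.94 region itself still covers the starts from 19390 to 19578 bp. Over all annotated starts, 13 of 14 had a region for MYC, 14 of 14 for MAX, 3 of 3 for MYCL, 2 of 3 for MYCN and 3 of 5 for MXD1. Neighbouring starts share regions: at MAX 1 region served all 14, and some MYC starts had only a region with a fold of 1.90. The share over all annotated starts of the genome is not given here. These counts, and that of the 32 MXI1 starts, are therefore no result about the members.

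**Figure D1:**
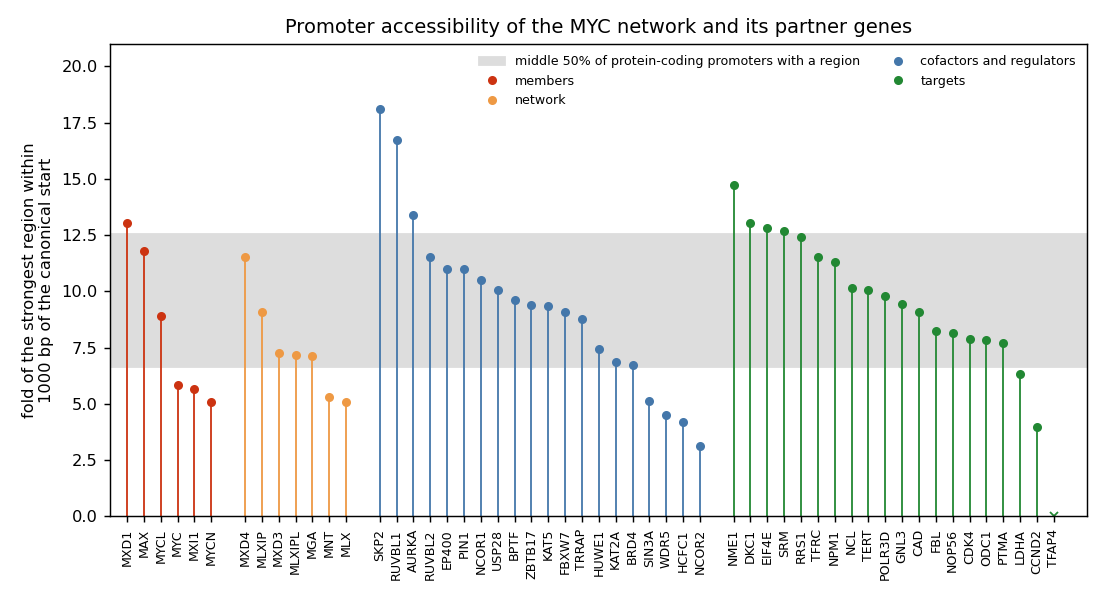
Fold (vertical axis) of the strongest region within 1000 bp of the canonical start for each gene of 4 lists, ordered by fold within a list; the grey band is the middle of the distribution of all protein-coding promoters with a region (6.65 to 12.6). MXD1 stands highest of the 6 members at 13.0 and MYCN lowest at 5.09; the cross marks TFAP4, where only a lower summit of a region was at that start.

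The rest of the network had a region at the canonical start in 7 of 7 genes, with 75.6% of all genes as background, which is no result about the network. MXD4, a further MXD repressor, had the highest fold with 11.5, followed by MLXIP, a nutrient-sensing partner of MLX, with 9.08. MXD3 had 7.27, MLXIPL (ChREBP) 7.19 and MGA, a MAX-binding subunit of a polycomb complex, 7.15. MNT, the broadly expressed MAX partner and repressor, had 5.32, and MLX, which stands where MAX stands in the parallel branch, had 5.10.

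Of 20 cofactors and regulators of MYC, all 20 had a region at the outermost 5′ end and all 20 at the canonical start, where 71.4% and 75.6% of all genes had one. At the canonical start SKP2, an F-box protein that ubiquitylates MYC, led with 18.1, then RUVBL1, a helicase of chromatin remodelling complexes, with 16.7, and AURKA, a kinase that stabilises MYCN, with 13.4. The lowest fold of the list at the canonical start was 3.14, and the median was 9.38. Of 20 genes known as MYC targets, 18 had a region at the outermost end, 19 at the canonical start and 20 at any start, beside 71.4%, 75.6% and 80.5% of all genes. GNL3, a nucleolar GTPase, lacked one only at the outermost end. TFAP4, a helix-loop-helix factor, was not counted at either, since the highest summit of its region was 1091 bp after the canonical start, but a lower summit lay 29 bp from it. With every summit counted 19 targets had one at the outermost end and 20 at the canonical start. The highest target folds at the canonical start were 14.7 at NME1, a nucleoside diphosphate kinase, 13.0 at DKC1, a pseudouridine synthase, and 12.8 at EIF4E, the cap-binding factor. The median of the targets with a region was 9.82, beside 9.54 for all canonical promoter regions.

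The label of the cells was checked on marker promoters. At the canonical start 9 of 10 pluripotent markers had a region, SOX2 and NANOG among them, and 1 of 14 markers of fibroblasts, blood, keratinocytes and hepatocytes, beside 75.6% of all genes. At any annotated start it was 10 of 10 and 4 of 14, beside 80.5%. Since most genes had a region, the counts of the pluripotent markers alone do not tell the cell type. POU5F1 was the marker without a region at the canonical start, with the nearest summit 1384 bp away. The 4 were COL1A1, COL1A2, FAP and ALB, with folds of 7.70, 6.37, 4.76 and 5.11, and no blood or keratinocyte marker had one. Their part in the regions below was not tested.

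The MYC window held 137 regions over 2.01 Mb, or 68.2 per Mb, against 54.6 per Mb over the list's chromosomes. Most were weak: the median fold was 4.22 (95% interval of the median 3.94 to 5.11), beside 5.38 over all regions, and 54 of 137 (39.4%, exact binomial interval 31.2% to 48.1%) exceeded that median of the list. The median −log10 p was 20.3 against 27.7. Intervals here cover counting error only. The regions covered 3.16% of the window, and the list covers 2.93% of the genome. By number the window thus exceeded the genome's density, and by length covered it was closer to it.

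**Figure D2:**
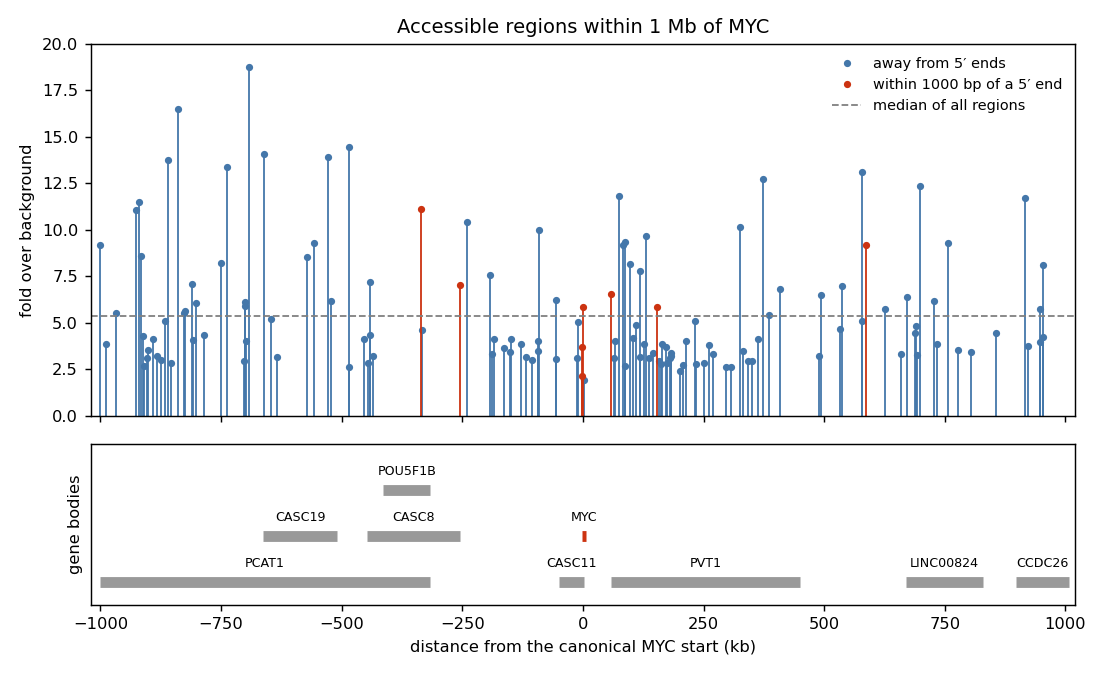
Fold over background (vertical axis) of the 137 regions within 1 Mb of MYC against the distance from its canonical start in kb, with gene bodies drawn to scale below. Red points lie within 1000 bp of the outermost or canonical start of a gene, and the dashed line is the median of all regions (5.38). The tallest lines stand in the PCAT1 body, up to 18.8, and the densest and mostly short lines in the first part of the PVT1 body.

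Counted in the same 2 Mb frame around the start of each of 19365 protein-coding genes, MYC ranked at the 68.4th percentile, with a median of 123 regions per gene. Only 1 other protein-coding 5′ end, that of POU5F1B, lies within 1 Mb of MYC. Among the 204 genes with as few neighbours the median was 99 and MYC ranked at the 89.0th percentile. Restricted to regions with a −log10 p above the median of the list, MYC had 51, the 23.4th percentile of all genes (median 65) and the 62.3rd of those with as few neighbours (median 46). The rank of the window therefore depended on whether weak regions were counted. The genes most like MYC by number of regions among those with as few neighbours were ARRDC4 and TENM4, with 137 each, and BRINP1, with 136.

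Few of these regions lay at the outermost or canonical start of a gene, the starts counted as 5′ ends here. Only 8 of 137 (5.84%, interval 2.55% to 11.2%) lay within 1000 bp of one, beside 14.5% of the list. Another 100 (73.0%, interval 64.7% to 80.2%) were classed as intronic, beside 50.1%. Other annotated starts were not counted, and regions did lie near some, with folds of 7.80 in PVT1 and 13.9 in CASC19. In all, 117 of 137 regions were in an annotated gene, most of them in the long noncoding RNA genes PCAT1 or PVT1. PCAT1, a noncoding RNA gene named for prostate cancer, held 46 regions with a median fold of 5.53 in the 684 kb of its body inside the window. PVT1, the noncoding neighbour of MYC, held 42 in 393 kb with a median of 3.58. LINC00824 held 10, CASC8 and CASC19 7 each, CCDC26 6 and CASC11 6. These counts overlap, since the CASC19 regions, and the CASC8 regions except that 255 kb before the MYC start, also lie in PCAT1.

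The strongest regions of the MYC window lay far upstream. The highest fold was 18.8 with a −log10 p of 376, in an intron of PCAT1 692 kb before the MYC start, and it was the only member region in the highest 1% of the list by fold. The next in the window were 16.5 at 840 kb before the start and 14.5 at 484 kb before it, also in PCAT1 introns. On the other side the highest were 13.1 at 578 kb after the start, between genes, and 12.7 at 373 kb after it, in PVT1. Before the MYC start there were 67 regions with a median fold of 4.61, 7 of them in the highest 10.0% of the list, and after it 70 with a median of 4.02, 3 of them in that class.

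The number of regions per 100 kb varied along the window. The fullest of its 20 bins, from +100 to +200 kb inside PVT1, held 17 regions. Of 29199 such bins of the genome 0.325% held as many or more, which is a share per bin and not for the fullest of 20. Those 17 regions had a median fold of 3.37, and 1 was in the upper quartile of the list by fold. The bins of the window had a median of 6.5 regions, beside 5 over the genome. Between 435 and 335 kb before the start no region was listed, a gap of 100.04 kb, the longest of the window. Of all gaps in the list 1.10% are as long or longer, so a gap of this length among the regions of such a window is not unusual. Gaps of 79.8 kb (+409 to +489 kb) and 79.2 kb (−334 to −255 kb) followed in length.

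Near MYC itself, the promoter region was followed by 1 weak region in the gene body, at +1.59 kb, with a fold of 1.90 and a −log10 p of 9.43, the lowest fold of all members. Before the promoter lay a region at −0.943 kb with a fold of 2.14 and one at −2.07 kb with 3.72, which is at the canonical start of CASC11, a noncoding RNA gene that runs antisense across MYC. The PVT1 promoter, 58.3 kb after the MYC start, had a fold of 6.55 over 1466 bp with 5 summits, the widest region of the window. The next strong regions on that side were in PVT1, with 11.8 and a −log10 p of 305 at 74.0 kb after the MYC start.

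POU5F1B, a retrogene copy of POU5F1, had no region at any annotated start. Its body held 2 regions, both at CCAT2, a noncoding RNA gene, where the fold was 11.1 at the start. The nearest summit to the canonical POU5F1B start was 13784 bp away. Since POU5F1B is nearly identical to POU5F1 and the treatment of reads that fit both is not known here, the absence of a region there is uncertain. Of the 5 microRNA genes MIR1204 to MIR1208 in the PVT1 body, only MIR1204 had a summit within 1000 bp of its start, a lower summit of the PVT1 promoter region 849 bp away. The highest summit of that region was 1469 bp from MIR1204. Of the genes at the edge of the desert, LRATD2 had a promoter fold of 9.51, in a region that also served the canonical start of PCAT1, and GSDMC had none at its canonical start.

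The values of the regions in PVT1 were compared with those of the rest of the window. In the list 65.7% of regions shared their exact fold and −log10 p with another region, as did 75 of 95 (78.9%, interval 69.4% to 86.6%) in the MYC window outside PVT1. In the PVT1 body it was 14 of 42 (33.3%, interval 19.6% to 49.5%). Unshared values were not particular to that body. Close to MYC but outside PVT1, the MYC and PVT1 promoter regions and a region 93.2 kb before the MYC start also had them. Others there, such as those 92.5 and 12.8 kb before the start, shared theirs. Of the 42, 25 had folds from 2.5 to 4, with a median −log10 p of 12.3, against 9.57 for regions of that fold in the rest of the window and 11.0 in the list. At these low folds the median −log10 p was thus higher in PVT1. The background that the folds and p values were computed against is not stated. The share was 27.3% at MYCN, 39.3% at MXI1, 50.0% at MAX and 53.8% at MYCL, and at MXD1 it was 12 of 16 regions.

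**Figure D3:**
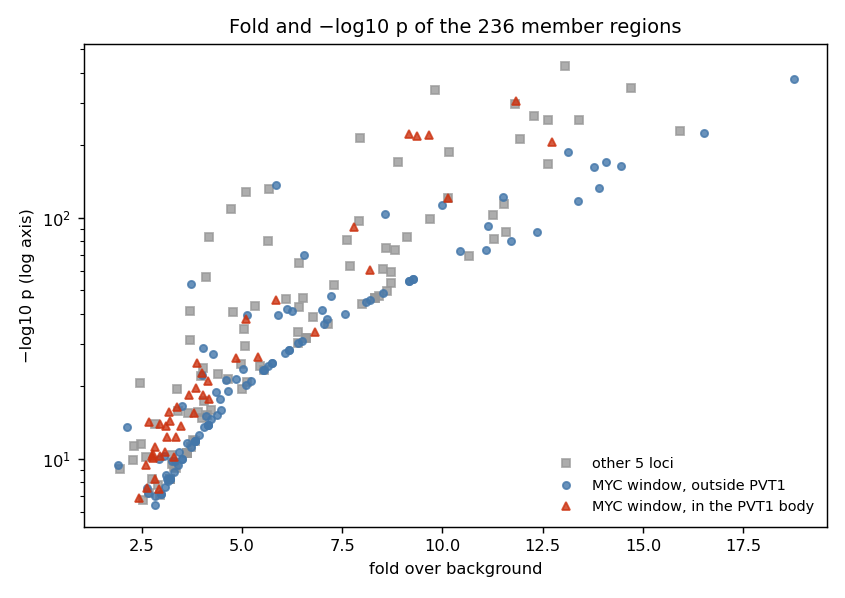
Fold (horizontal axis) against −log10 p (vertical, log axis) of the 236 member regions, with PVT1 regions as red triangles, the rest of the MYC window as blue circles and the other loci as grey squares. Blue circles run mostly along the lower edge; at folds from 2.5 to 4 the triangles have a median of 12.3 against 9.57 for the circles.

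The other 5 loci held 99 regions in 1.23 Mb, with 80.2 per Mb and a median fold of 5.33. MYCN and MXI1 were the densest, with 107 and 100.1 regions per Mb, and MAX, MXD1 and MYCL had 67.4, 65.2 and 62.9. In the frame of 1 Mb on either side of the start, MYCN had 169 regions (94.7th percentile of genes) and MXI1 160 (90.3rd), both above the 137 of MYC. MAX had 133 (63.7th), MYCL 131 (61.0th) and MXD1 116 (40.8th). Measured in one frame, then, the desert of MYC held fewer regions than the surroundings of MYCN or MXI1.

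**Figure D4:**
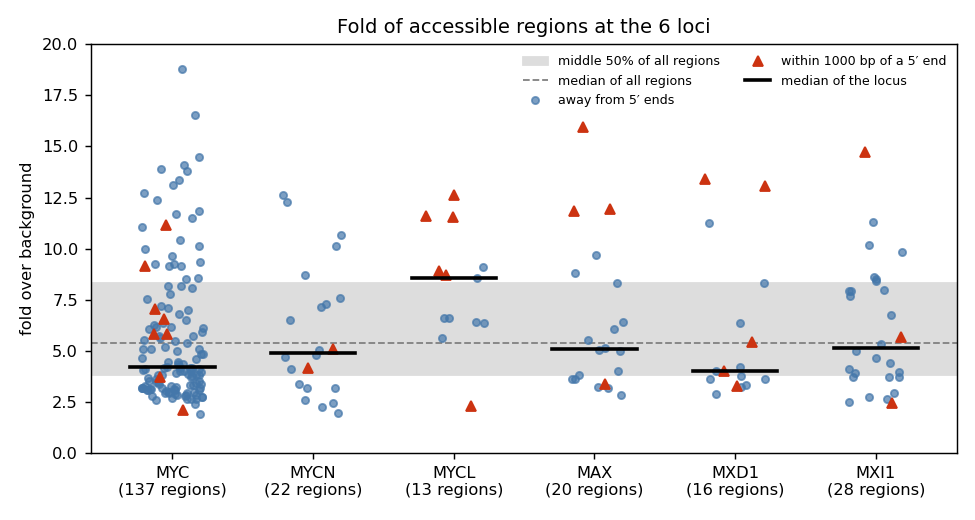
Fold over background (vertical axis) of every region at each of the 6 loci, with red triangles within 1000 bp of a 5′ end, blue circles elsewhere, a black bar at each locus median, and the grey band and dashed line for the middle of the list and its median (5.38). The MYCL bar stands at 8.59 and the other 5 between 4.03 and 5.16, with wide overlap of points.

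At MYCN, the MYC paralogue of neural and embryonic tissues, 13 of 22 regions lay between genes and 20 of 22 away from 5′ ends. The highest folds were 12.6 at 18.0 kb after the start and 12.3 at 40.2 kb after it, the latter with the octamer printed above, and 10.7 at 66.1 kb before it. Both leading regions exceeded the MYCN promoter (5.09) in fold and, with −log10 p of 254 and 265 against 128, in evidence. A cluster at the gene itself had lower folds with high evidence: 4.73 at −1.66 kb with a −log10 p of 109, and 4.18 at +1.17 kb with 82.9. The latter lies at the outermost start of MYCNOS, the antisense gene that overlaps MYCN. Within 1000 bp of the canonical MYCNOS start lay both the summit of that region, the nearer, and the summit of the MYCN promoter region. The promoter region therefore cannot be assigned to only 1 of the 2 genes. MYCNUT had no summit within 1000 bp of its start. The widest MYCN region (1429 bp, 4 summits, fold 7.61) was 72.3 kb after the MYCN start and covers the start of GACAT3, a noncoding RNA gene. Its highest summit was 1101 bp from that start, and a lower one, with a fold of 2.78, was 170 bp from it.

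MYCL, the paralogue amplified in some lung cancers, had the highest median fold with 8.59, and 12 of 13 regions (92.3%, interval 64.0% to 99.8%) exceeded the median of the list. The locus was also the richest in promoters, with 6 of 13 regions at 5′ ends. The highest folds were at the promoter of MFSD2A, a lipid transporter gene (12.6), at an annotated 5′ end 102 kb after the MYCL start (11.6), and at the promoter of TRIT1, a tRNA-modifying enzyme (11.5). The 7 MYCL regions away from 5′ ends had a median fold of 6.60, against 5.17 in the list. MYCL-AS1, antisense to MYCL, had only a weak region at its start, with a fold of 2.30.

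At MAX the highest fold was 15.9 at CHURC1, whose start region also serves the readthrough gene CHURC1-FNTB. FNTB, the beta subunit of farnesyltransferase, followed with 11.9 and MAX with 11.8. RAB15, a small GTPase gene, had 3.39 and GPX2, an intestinal glutathione peroxidase gene, had no region at its start. In the MAX gene body away from its start, folds ran from 3.20 to 8.31. MAX overlaps FNTB in the annotation, and 3 of those regions lie in both genes.

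At MXD1, 12 of 16 regions lay away from the member and its promoter with folds of at most 6.39, and the median was 4.03. The exceptions were the promoter of GMCL1 (13.4), the MXD1 promoter (13.0), and regions in PCBP1-AS1 at 115 and 109 kb after the MXD1 start (11.3 and 8.31). No region lay in the MXD1 gene beyond its promoter. The neighbours SNRNP27 and ASPRV1 had promoter folds of 5.46 and 4.01.

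At MXI1, 13 of 28 regions exceeded the median of the list. After SMNDC1 (14.7) the highest folds were 11.3 at 104 kb after the start and 10.2 at 38.2 kb before it, both between genes. The MXI1 region with the most summits, 5, lay 147 kb after the start with a fold of 7.93. Within the gene body the folds ran from 2.46 to 9.82.

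Taking all 6 loci, 28 of 236 regions (11.9%, interval 8.03% to 16.7%) were at 5′ ends, against 14.5% of the list. Of all members 103 (43.6%, interval 37.2% to 50.2%) exceeded the list's median fold, and 18 (7.63%, interval 4.58% to 11.8%) were in the highest 10.0%. Among the 208 away from 5′ ends the median fold was 4.43, against 5.17 in the list. Widths did not stand apart, with a median of 448 bp against 447.

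Motifs were searched on both strands within 50 bp of each summit away from 5′ ends, and shares are given beside those of the 137091 such regions of the list. Besides the octamer, TEAD, AP-1, CRE, CCAAT, GC box and both E boxes named above, the search took ACAATG for the SOX factors of pluripotent and neural cells and CCGGAAG for the ETS factors. It also took CAGCAGG for the ZIC zinc finger proteins, the TATA box TATAAA of core promoters, and a consensus of the insulator protein CTCF. The variant E box overlapped the CRE in the MXI1 intron as printed, and a base could count for more than 1 motif. A match describes letters only.

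The octamer was in 12 of 208 regions (5.77%, exact interval 3.02% to 9.86%), against 2.52%. Of the 12, 7 were in the MYC window (5.43% of 129, interval 2.21% to 10.9%) and 5 at the other loci (6.33% of 79, interval 2.09% to 14.2%), and each of these intervals included the share of the list. TEAD was in 37 (17.8%, interval 12.8% to 23.7%), against 11.9%, with 17.8% in the MYC window (interval 11.7% to 25.5%) and 17.7% at the other loci (interval 10.0% to 27.9%), which each included it too. Over all 208 regions, these were the 2 of 13 motifs whose interval did not include the share of the list, and no adjustment was made for the number of motifs. Over whole regions in place of the 50 bp on either side of the summit, the octamer was in 10.1% (interval 6.36% to 15.0%) against 6.67% of the list, which the interval includes. Regions with the octamer had a median fold of 4.66 and those with TEAD 5.12, beside 4.38 and 4.36 without.

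**Figure D5:**
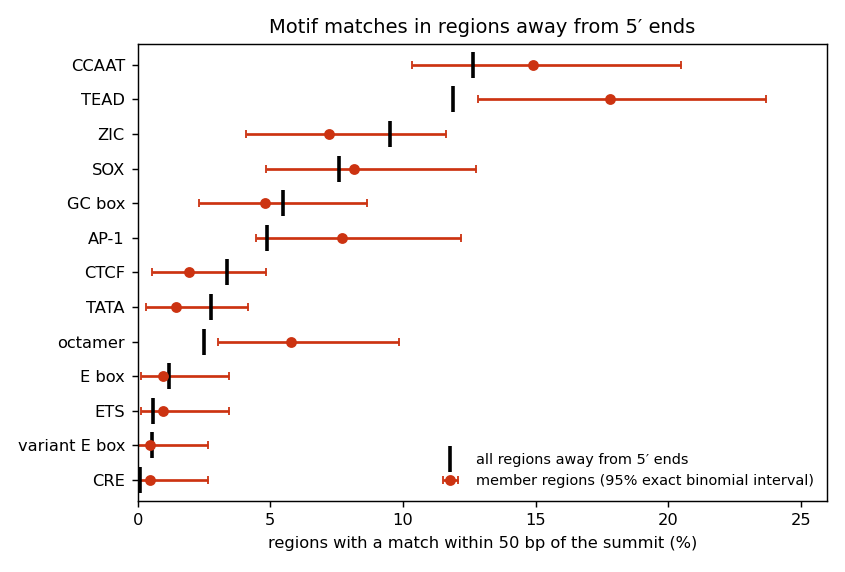
Share of regions away from 5′ ends with each motif within 50 bp of the summit (horizontal axis, %), as red points with 95% exact binomial intervals for the 208 member regions and black bars for all such regions of the list. The octamer (5.77% against 2.52%) and TEAD (17.8% against 11.9%) are the motifs whose black bar lies outside the interval.

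For the other motifs the interval over the 208 regions included the share of the list. AP-1 was in 7.69% (interval 4.46% to 12.2%) against 4.88%, CCAAT in 14.9% against 12.7% and SOX in 8.17% against 7.58%. ZIC was in 7.21% against 9.51%, with 10.1% in the MYC window and 2 of 79 (2.53%, interval 0.308% to 8.85%) at the other loci, where the interval lay below the list's share. CTCF was in 1.92% (interval 0.526% to 4.85%) against 3.36%. The E box that MYC, MAX and the MXD proteins bind was in 2 of 208 (0.962%, interval 0.117% to 3.43%) against 1.19%. Both were in the MYC window, in PVT1 326 kb after the start (fold 10.1) and in LINC00824 at 727 kb (6.18). A further 2 were at promoters, those of MAX and SMNDC1, among the 28 member regions at 5′ ends, where 3.12% of the list's regions had one.

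Since the rule cuts at a distance, the regions at its edges were compared in value. For MYC the outermost regions inside lay 999 and 948 kb from the gene body with folds of 9.16 and 8.09, and the first outside 1036 and 1026 kb away had 11.1 and 14.2. For MXD1 the outermost inside had 3.31 and 11.3 and the first outside 5.85 and 12.7. For MYCN they were 7.14 and 10.1 inside and 11.5 and 2.99 outside. For MYCL they were 11.6 and 6.39 inside and 3.80 and 4.69 outside, for MAX 15.9 and 9.69 inside and 5.65 and 4.15 outside, and for MXI1 8.41 and 5.33 inside and 5.46 and 3.27 outside. Neighbouring regions of the list lie a median of 10.7 kb apart, so regions beyond each edge were bound to be found. These values describe where the rule cuts and are no result about the loci.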

How the data were processed

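Both H1 samples share 1 list of 236878 summits, deposited by the authors in narrowPeak layout. Its values, as deposited, are a score (the −log10 p times 10, capped), the fold of the summit over an unstated background (a ratio), −log10 p and −log10 q, and the summit position, another number in bp. The score and −log10 q were read but not reported. The build is GRCh38 per the submitters' processing notes; the aligner, caller, settings, read shift, filters, what was overlapped and the read numbers were not given in the sources used here, so depth is unknown.

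Summits were joined into 160327 regions by chromosome, start and end, each represented by its highest fold, and placed on GENCODE release 44 (python 3.11.15, pandas 2.3.3, pysam 0.24.0, scipy 1.17.1). A promoter region has its summit within 1000 bp of a start; a region away from 5′ ends lies outside that distance of the outermost and canonical starts of every annotated gene. Intervals are exact (Clopper-Pearson) at 95%. No test was made: 1 list has no replicate spread. No member region aligned to mitochondrial DNA (blastn 2.17.0, E-value 1e-05). The scripts were tested on simulated regions and motifs.

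The members and lists were chosen with earlier results of these data known. Named were the members, the network genes, genes of the windows, the 3 highest and all closed genes of the cofactor and target lists, and in each locus the 3 highest folds, the widest, the most summits, the nearest to the start and the edges. The use of canonical starts in the away class, the sharing of fold and −log10 p values, the medians of regions of like fold, the second starts of MXI1 and the windows printed for the CRE were chosen after seeing the data. Alternatives changed the distance, summit, threshold, start, window and value per region.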

Additional observations from a re-analysis of the deposited data

How the results depend on the processing

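No paired analysis was possible because both samples share 1 list, and no replicate could be left out. Of 130 alternatives, 83 kept the value within 1.5 times (counts) or its interval, 47 moved it and 0 reversed it. The number of MYC regions, 137, became 76 within 500 kb, 20 within 100 kb, 51 with a −log10 p above the median of the list, and 27 among the list's highest by fold (upper quartile). The 99 of the other 5 loci became 62 within 50 kb, 180 within 200 kb, 727 within 1 Mb, 57 by the −log10 p threshold and 29 in the upper quartile. The 68.4th percentile of the MYC window became 76.7 with 500 kb on either side, 23.4 by the −log10 p threshold and 89.0 among genes with as few neighbours. The E box share of 0.962% became 3.85% over whole regions, against 5.53% in the list. These follow from wider or narrower windows, fewer regions counted and, for the percentile of 89.0, a smaller set of genes compared. All 28 counts of genes with a promoter region, those with every summit counted being chosen after seeing the data, stayed within 1.5 times. Within 500 bp of the outermost end the cofactor count still fell from 20 to 14 and the target count from 18 to 15. The share of all genes at 500 bp is not given here. All 12 median folds stayed within their intervals as well. The MYCL median of 8.59 still fell to 6.41 with the mean over summits and to 6.60 away from 5′ ends. Its interval, from 13 regions, was wide (6.39 to 11.5). Over whole regions the octamer share was 10.1% (interval 6.36% to 15.0%) against 6.67% in the list and the TEAD share 40.9% (34.1% to 47.9%) against 32.6%, so the octamer's interval included the list's share and TEAD's did not. A region missing from the list may be closed or below the unstated threshold, and unknown depth limits every absence named.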
